A study of Mus musculus with 7 samples.

Results

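Pulmonary surfactant is a film of phospholipids and proteins that lowers surface tension in the alveoli, and it is made by alveolar type 2 cells. Its lipids and the hydrophobic proteins SP-B and SP-C are packed in lamellar bodies, lysosome-related organelles that are loaded by a lipid transporter and released by exocytosis. Club cells of the small airways make part of the surfactant proteins as well, and tumor cells of small cell lung cancer (SCLC) are neuroendocrine and are not known for surfactant production.

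The genes described here are 10 of 56941 genes in the count matrices, taken by symbol: the surfactant proteins Sftpc, Sftpb, Sftpa1 and Sftpd, the lamellar body genes Abca3, Lamp3 and Napsa, the phosphate transporter Slc34a2, the phospholipid-remodeling enzyme Lpcat1 and the transcription factor Etv5. Each symbol occurred once in every matrix. They were followed through alveolar, club-like and tumor nuclei of each animal.

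Single nuclei were sequenced from fresh-frozen SCLC of the lung of 4 male mice at the experimental endpoint. RP1 and RP2 carried Rb1 fl/fl and Trp53 fl/fl, and RPC1 and RPC2 carried these alleles together with a Casp8 allele that the labels write as Casp8-/- and the design text calls a conditional deletion. All 4 animals inhaled adenoviral Cre, driven by the CMV promoter, which can recombine the alleles in any infected cell of the lung, alveolar and airway cells included. They were infected as young adults, and the age of each of these 4 animals at the endpoint is not given in the sources used here. The 7 libraries each pooled all 4 animals, which were told apart by their first barcode, so that the animal was the replicate (2 RP against 2 RPC). RP and RPC mean here the animals so labelled, and sets of 4 values below always follow the order RP1, RP2, RPC1, RPC2. Levels are CPM, a gene's transcripts scaled to all transcripts of that class in that animal. Casp8 itself, counted over the whole gene in tumor-like nuclei, stood at 57.1, 60.6, 91.6 and 66.9 CPM. It was not lower in RPC, and as the deleted stretch was not counted apart, this value could not check the labels.

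The matrices held 32299909 to 72446861 transcripts in 8413 to 10865 nuclei per animal, and both RPC animals were deeper than both RP animals. After filtering, 38254 nuclei were kept and named by marker genes that excluded all 10 genes. The alveolar type 2-like class was a single cluster of 237 nuclei (0.620% of those kept), which numbered 22, 97, 49 and 69 in the 4 animals. Of its 15 naming markers, 14 or 15 were detected in each animal, among them Hc, Rbpjl and Ppp1r14c, while S100g was not detected in RP2 and RPC1 and Fabp5 not in RP1. Their sum ranged from 2842 to 5628 CPM over the animals. Hc, Chil1, Rbpjl, Mlc1, Muc1, Ctsc, Acoxl and Ppp1r14c were lower in both RPC animals than in both RP animals, and the other naming markers overlapped. Among all genes tested in this class both RPC animals were lower for 17.8%. The part of these lower markers in the differences below was not tested. The 16 neuroendocrine markers together stood at 1931 and 2012 CPM in alveolar type 2-like nuclei of RP1 and RP2 and at 3804 and 3162 CPM in RPC1 and RPC2, against 6806 to 11157 CPM in tumor-like nuclei. The median over the 16 markers in alveolar type 2-like nuclei was 44.2, 39.6, 60.5 and 39.7 CPM and overlapped between the genotypes, so the sum moved with genotype and the median did not. The part of tumor transcripts in the differences below was not tested.

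To place the genes in the genome, their GRCm39 positions are given from GENCODE vM39. Sftpc (chr14:70758389-70761524, minus strand), Sftpa1 (chr14:40853739-40858551, plus strand) and Sftpd (chr14:40894170-40907128, minus strand) lay on chromosome 14. Sftpb (chr6:72281594-72291354), Abca3 (chr17:24570895-24629842), Napsa (chr7:44221804-44236295), Slc34a2 (chr5:53195423-53229006) and Lpcat1 (chr13:73615316-73664580) were on the plus strand, and Lamp3 (chr16:19472128-19525125) and Etv5 (chr16:22200052-22259662) on the minus strand. Counts were per gene, so introns and exons were not told apart. On the opposite strand Sftpd overlaps Mbl1, Abca3 overlaps D330041H03Rik and Gm25618, and Sftpb, Napsa, Slc34a2 and Etv5 overlap predicted genes (Gm67669, Gm15396, Gm17182, and Gm61225 with Gm59753). Whether the counting used strand is not given in the sources used here. In alveolar type 2-like nuclei Mbl1 had at most 4 transcripts per animal and D330041H03Rik at most 2.

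RefSeq promoters (build GRCm38.p6) were at hand for 7 of the 10 genes: Sftpb, Sftpa1, Abca3, Lamp3, Slc34a2, Etv5 and Lpcat1. Sftpc, Sftpd and Napsa were not analysed here in this respect. The 150 bases directly upstream of the start are shown for 2 surfactant proteins that were low outside the epithelium and for Slc34a2. They are also shown for Abca3 and Lpcat1, which stayed well above 0 in tumor-, endothelial-, macrophage-, smooth muscle- and B cell-like nuclei. Capitals mark the letters CTCAAG, the core bound by the lung factor NKX2-1, or TATAAA, on either strand.
Sftpb, chr6:72304460-72304609, plus strand: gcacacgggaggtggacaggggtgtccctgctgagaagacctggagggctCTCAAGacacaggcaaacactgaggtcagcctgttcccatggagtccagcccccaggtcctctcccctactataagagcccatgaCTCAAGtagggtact
Sftpa1, chr14:41131638-41131787, plus strand: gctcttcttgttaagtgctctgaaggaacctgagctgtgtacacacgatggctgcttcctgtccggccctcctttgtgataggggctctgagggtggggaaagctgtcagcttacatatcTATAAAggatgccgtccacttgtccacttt
Slc34a2, chr5:53049203-53049352, plus strand: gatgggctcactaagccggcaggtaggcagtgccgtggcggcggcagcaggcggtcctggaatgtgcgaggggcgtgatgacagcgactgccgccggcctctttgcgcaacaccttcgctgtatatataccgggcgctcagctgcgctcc
Abca3, chr17:24351873-24352022, plus strand: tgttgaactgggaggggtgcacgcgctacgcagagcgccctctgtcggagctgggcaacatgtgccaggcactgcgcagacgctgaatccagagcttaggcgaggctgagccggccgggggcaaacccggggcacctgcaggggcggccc
Lpcat1, chr13:73467081-73467230, plus strand: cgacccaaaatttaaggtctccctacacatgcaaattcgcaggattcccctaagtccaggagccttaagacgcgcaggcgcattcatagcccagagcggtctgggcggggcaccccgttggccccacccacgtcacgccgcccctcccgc

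Over the 250 bases upstream, the CTCAAG core occurred 2 times in the promoter of Sftpb, with first bases 100 and 15 bases before the start, and 1 time in that of Sftpa1, 166 bases before the start and so outside the stretch shown. It was not found in the other promoters, and 13.3% of 32851 RefSeq promoters held it at least 1 time. The promoter of Sftpa1 held TATAAA 30 bases before the start, and 12.4% of all promoters held these letters anywhere in the 250 bases, on either strand. CpG dinucleotides numbered 7 in Sftpb, 3 in Sftpa1 and 0 in Lamp3, against a median of 6 over all promoters. Abca3 had 21, Lpcat1 16, Slc34a2 28, and the 2 promoters listed for Etv5 had 18 and 27. Abca3 and Lpcat1, counted in every class, had CpG-rich promoters, but so did Slc34a2, which was not. A match in these letters describes the sequence and is not evidence of binding.

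**Figure D1:**
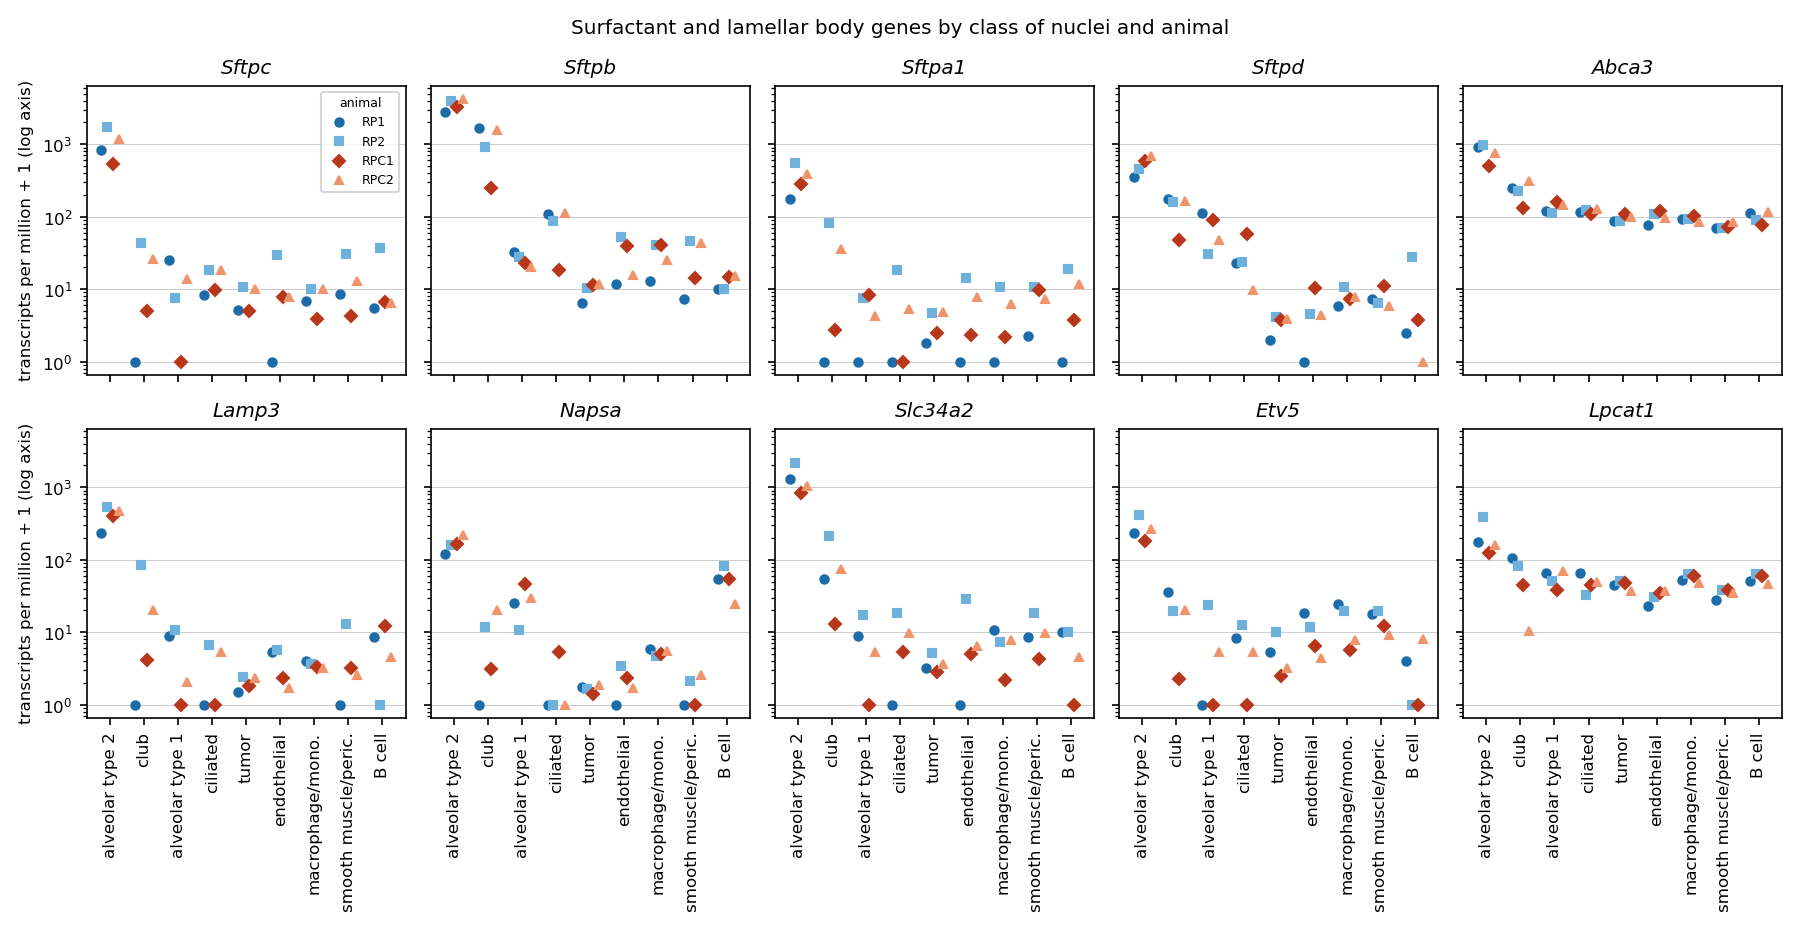
Level of each gene (y, CPM + 1 on a log axis, so that 0 sits at 1) in 9 classes of nuclei (x), 1 point per animal. All 10 genes were highest in alveolar type 2-like nuclei of each animal, Sftpb and Sftpd were also high in club-like nuclei, and Abca3 and Lpcat1 stayed between 68.0 and 119 CPM and between 21.9 and 63.2 CPM in the tumor-, endothelial-, macrophage-, smooth muscle- and B cell-like classes.

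The 4 surfactant protein genes were highest in alveolar type 2-like nuclei in all animals, though none of them was used to find or name these nuclei. These class levels are descriptions without a test, since clusters were built from the same nuclei. Sftpb, which encodes the hydrophobic protein SP-B needed for the film and for lamellar body formation, stood at 2815, 3929, 3295 and 4195 CPM. Sftpc, which encodes SP-C and marks alveolar type 2 cells, stood at 840.1, 1722, 527 and 1172 CPM. RP2 was highest and RPC1 lowest. Exact 95% Poisson intervals were 636 to 1088 and 1567 to 1887 CPM in the RP animals and 446 to 619 and 1027 to 1331 CPM in the RPC animals, so the animals differed beyond counting error within both genotypes. Intervals cover counting error only.

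The collectins, soluble surfactant proteins of innate defense, differed between animals in another way. Sftpa1 (SP-A) stood at 177, 558, 281 and 392 CPM, with RP2 highest as for Sftpc but RP1 lowest. Sftpd (SP-D) stood at 354, 459.6, 581 and 680.1 CPM. Both RPC animals lay above both RP animals.

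Among the lamellar body genes, Abca3, the lipid transporter of the lamellar body membrane, stood at 928, 972, 502 and 745 CPM in alveolar type 2-like nuclei, both RP animals lying above both RPC animals. Lamp3, a membrane protein of these organelles, stood at 236, 531, 395 and 467 CPM. Napsa, an aspartic protease that takes part in the processing of pro-SP-B, stood at 118, 158, 164 and 218 CPM. In RP1 Napsa rested on 8 transcripts, with an interval of 50.9 to 232 CPM.

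Slc34a2, the sodium-dependent phosphate cotransporter of the alveolar surface, stood at 1282, 2181, 833 and 1048 CPM. Lpcat1, which forms the dipalmitoyl phosphatidylcholine of surfactant, stood at 177, 384, 121 and 159 CPM, on 12 to 102 transcripts. Etv5, an ETS factor that maintains alveolar type 2 identity, stood at 236, 414, 182 and 268 CPM. RP2 was highest for Sftpc, Sftpa1, Abca3, Lamp3, Slc34a2, Etv5 and Lpcat1, whereas RPC2 was highest for Sftpb, Sftpd and Napsa.

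Levels of different genes were compared per length. Per kilobase of exons, Sftpb stood at 1759.8 ± 308 and Sftpc at 1027 ± 492 CPM (SD, n = 4 animals), and Sftpb was higher in each of the 4 animals. The next were Slc34a2 at 267 ± 118, Sftpd at 212 ± 58.3, Lamp3 at 121 ± 37.9 and Sftpa1 at 117 ± 54.2 CPM per kilobase. Abca3 at 75.1 ± 20.4, Napsa at 61.7 ± 15.5, Lpcat1 at 43.2 ± 24.3 and Etv5 at 36.6 ± 13.3 closed the order. Every pair of neighbors in this order overlapped over the animals, other than Sftpc and Slc34a2, of which the lowest Sftpc (508) exceeded the highest Slc34a2 (435). Nuclear RNA also holds introns, and per kilobase of the whole gene Sftpc exceeded Sftpb in RP2 (549 against 403 CPM) but not in the other 3 animals. The first 2 places were Sftpb and Sftpc on both scales, while Lamp3 fell from the fifth to the eighth place per kilobase of the whole gene.

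To compare nuclei of unequal depth, each was thinned to 1000 transcripts, leaving out 1, 16, 1 and 4 shallower alveolar type 2-like nuclei. Sftpb was then found in 17 of 21, 70 of 81, 42 of 48 and 55 of 65 of these nuclei, which is 81.0%, 86.4%, 87.5% and 84.6% (exact 95% intervals from 58.1% in RP1 to 95.3% in RPC1). Sftpc was found in 47.6%, 74.1%, 33.3% and 52.3%, and Etv5 in 9.52%, 25.9%, 14.6% and 23.1%. Unthinned, in the same nuclei, the shares of Sftpc were 52.4%, 82.7%, 62.5% and 70.8%, at median depths of 2767, 2527, 4053.5 and 2557 transcripts. In endothelial-like nuclei, which should lack Sftpc and had a median depth of 2658 to 3933 transcripts, the thinned share was 0, 1.65%, 0 and 0.654%. Exact 95% intervals for 0 of 84 and 0 of 83 nuclei reach up to 4.30% and 4.35%. The Sftpb share there was 1.19% to 4.82%.

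Several of the 10 genes were found together in most alveolar type 2-like nuclei and almost never in a tumor-like nucleus. At 1000 transcripts per nucleus, 3 or more of them were found in 71.4% of 21, 86.4% of 81, 68.8% of 48 and 75.4% of 65 alveolar type 2-like nuclei. In tumor-like nuclei the counts were 0 of 6302, 0 of 6501, 0 of 9062 and 4 of 8254, the last being 0.0485%. In club-like nuclei they were 1 of 15, 8 of 85, 14 of 702 and 8 of 84.

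As the pattern of Sftpc was the reference, other genes were ranked by how closely they followed it over 39 sums of 1 class in 1 animal (12 classes, log2 of CPM plus 5). These sums share animals and libraries, so the correlations are descriptions. Of the 10 genes, Slc34a2 (Pearson's r = 0.94), Sftpa1 (0.92) and Lamp3 (0.92) were nearest, then Abca3 (0.87), Sftpb (0.85), Etv5 and Sftpd (both 0.80), Napsa (0.72) and Lpcat1 (0.70). Outside the 10 genes, the nearest were Slc26a4, an anion exchanger (0.91), Hc, complement component C5 (0.91), Cxcl15, the lung chemokine lungkine (0.91), Zfp385b, a zinc finger protein (0.91), and Itih4, a serum protein (0.90). Hc and Cxcl15 were also naming markers of the class. Slc26a4 stood at 221, 207, 132 and 114 CPM in alveolar type 2-like nuclei and at no more than 0.399 CPM in tumor-like nuclei.

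Club-like nuclei shared only part of this set. Club-like nuclei numbered 16, 90, 713 and 88, and in them Sftpb stood at 1662, 916, 248 and 1549 CPM and Sftpd at 175, 157, 47.0 and 164 CPM. Sftpc stood at 42.6, 4.05 and 25.3 CPM in RP2, RPC1 and RPC2 and had no transcript in RP1. Sftpb in club-like nuclei lay 1.69- to 13.3-fold below its alveolar type 2-like level of the same animal, and Sftpc lay 40.4- to 130.0-fold below in the 3 animals with a transcript.

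The low values of RPC1 fell together with its makeup of clusters. A cluster led by Cbr2, Muc5b and Cyp2f2, airway secretory and detoxifying genes, held 9, 29, 13 and 67 nuclei. A second, led by Pkhd1 and Col23a1, held 6, 48, 223 and 15. The 2 remaining clusters, also led by Pkhd1, were almost wholly of RPC1 (229 of 248 and 248 of 249 nuclei) and deeper, with medians of 8740.5 and 25447 transcripts against 2407.5 and 2813. In the Cbr2 cluster Sftpb stood at 2679.8, 1471, 939 and 1647 CPM, and in the second at 949, 1013, 1003 and 2108 CPM, so that RPC1 was lowest in the first and within the range of the other animals in the second. In the 2 deep clusters of RPC1 Sftpb stood at 379 and 128 CPM.

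**Figure D2:**
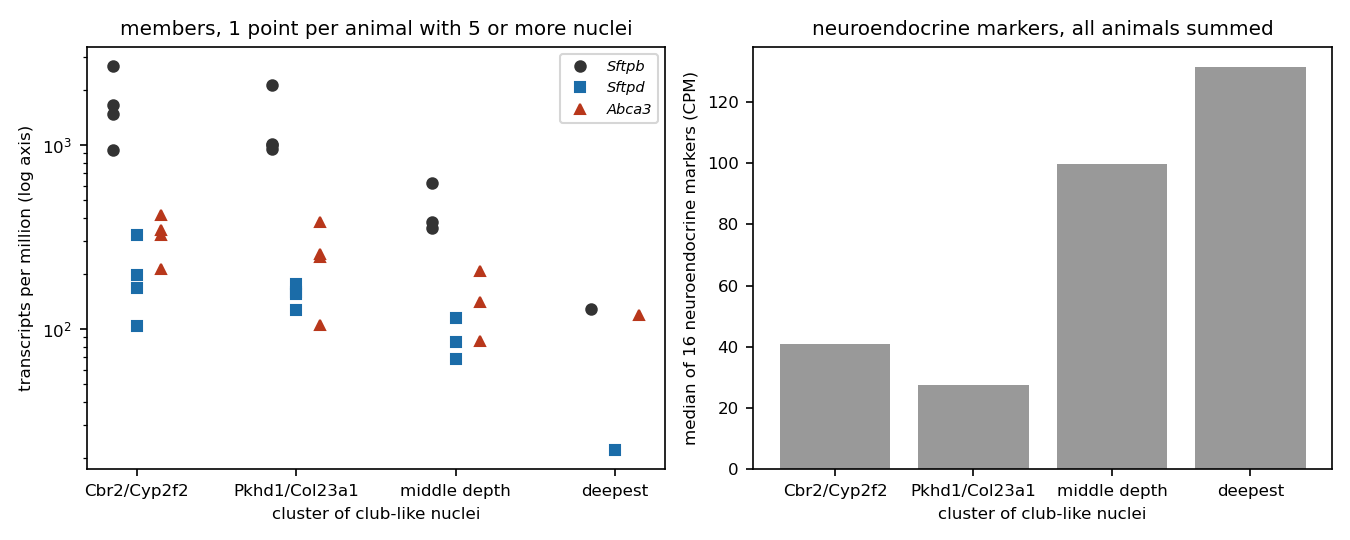
Left, level (y, CPM on a log axis) of Sftpb, Sftpd and Abca3 in the 4 clusters of club-like nuclei (x), 1 point per animal with 5 or more nuclei. Right, median level of 16 neuroendocrine markers in each cluster over all animals. Sftpb in RPC1 fell from 939 and 1003 CPM in the first 2 clusters to 379 and 128 CPM in the deep ones, where the marker median was 99.6 and 131 CPM against 41.0 and 27.5 CPM.

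The deep club-like clusters were also those with most neuroendocrine markers, with a median over the 16 markers of 99.6 and 131 CPM, against 41.0 CPM in the Cbr2 cluster and 27.5 CPM in the other. In tumor-like nuclei this median was 135 to 141 CPM by animal. The deepest cluster, though named by club markers, thus came near the tumor-like level. High medians were not particular to these club-like clusters. The T or NK cell-like cluster had 125 CPM. Endothelial-like clusters had 60.4, 89.6 and 119 CPM, and B cell-like clusters 44.2 and 117 CPM. Abca3 changed less across the 4 clusters of RPC1 (211, 246, 140.2 and 119 CPM) than Sftpd (326, 154, 85.2 and 22.0 CPM). The part of tumor transcripts or joined nuclei in these values was not tested. A further cluster of 276 deep nuclei, with a median of 14853 transcripts, was led by Cbr2, Sftpb and Aox3 and stayed unnamed. It held Sftpb at 334, 217, 520.1 and 296 CPM, Sftpc at 28.4, 31.2, 52.5 and 43.1 CPM, and a neuroendocrine marker median of 115 CPM.

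Alveolar type 1-like nuclei, the thin gas-exchange epithelium that alveolar type 2 cells can give rise to, kept some Sftpd and Napsa. Sftpd stood at 112, 29.7, 89.3 and 46.7 CPM, on 9 to 43 transcripts, and Sftpc at 24.0, 6.59, 0 and 13.0 CPM. In RPC1 the 0 for Sftpc came with 134407 transcripts, which allow up to 22.3 CPM if 3 transcripts are taken as the limit of a 0. Napsa stood at 24.0, 9.89, 44.6 and 28.2 CPM there. It was also counted in B cell-like nuclei, at 53.0, 80.4, 52.8 and 23.3 CPM on 35, 9, 19 and 13 transcripts, while Sftpb in the same nuclei stayed between 8.94 and 14.3 CPM.

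In tumor-like nuclei the surfactant protein genes were at trace level. Sftpc stood at 4.10, 9.77, 4.01 and 9.09 CPM, which was 129- to 205-fold below the alveolar type 2-like level of the same animal. Sftpb stood at 5.48, 9.37, 10.3 and 10.7 CPM, 321- to 513-fold below. Sftpa1, Sftpd, Lamp3, Napsa and Slc34a2 did not exceed 4.10 CPM in any animal. At 1000 transcripts per nucleus, Sftpc was found in 0.381% of 6302, 0.708% of 6501, 0.320% of 9062 and 0.993% of 8254 tumor-like nuclei (exact 95% intervals from 0.214% in RPC1 to 1.23% in RPC2). Unthinned, the shares were 1.44%, 3.46%, 2.12% and 4.23%. In macrophage- or monocyte-like nuclei, which should lack Sftpc, the thinned shares were 1.40%, 1.43%, 0 of 183 and 0.633%, so the tumor-like shares lay at or below this background or within its counting error (up to 3.48% in RPC2). The mean share was 0.544% ± 0.231 in RP and 0.657% ± 0.476 in RPC (SD, n = 2 each, two-sided exact permutation p = 1). With 2 animals per group no p below 0.333 can be reached.

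Because alveolar type 2-like nuclei were few, much of what was counted for these genes lay in other nuclei. Over all animals 34.6% of Sftpc transcripts lay in the alveolar type 2-like class and 38.9% in the tumor-like class, and Slc34a2 had 47.9% and 16.8%. Of the Sftpc transcripts in tumor-like nuclei, 11.8% to 18.6% per animal lay in the 9, 25, 29 and 34 nuclei that held 3 or more of the 8 genes other than Abca3 and Lpcat1.

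Abca3 and Lpcat1 behaved otherwise. In tumor-like nuclei Abca3 stood at 85.3, 85.5, 107 and 97.0 CPM, and Lpcat1 at 44.1, 49.6, 47.4 and 35.9 CPM. Over 20 sums of the tumor-, endothelial-, macrophage-, smooth muscle- and B cell-like classes, Abca3 ranged from 68.0 to 119 CPM and Lpcat1 from 21.9 to 63.2 CPM, and both were above 0 in every sum. Both were still highest in alveolar type 2-like nuclei, Abca3 by 4.67- to 11.4-fold and Lpcat1 by 2.55- to 7.74-fold over tumor-like nuclei of the same animal.

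Expressed per 100 Sftpc transcripts, the genes fell into groups. Slc34a2 had 153, 127, 158 and 89.4 transcripts per 100 of Sftpc in alveolar type 2-like nuclei and 53.1, 42.0, 45.3 and 29.3 in tumor-like nuclei, a ratio of 0.286 to 0.348 between the classes. For Sftpb this ratio was 0.328 to 0.420 and for Sftpa1 0.707 to 1.29. For Abca3 it was 15.5 to 28.2 and for Lpcat1 22.8 to 51.5, so both were counted in tumor-like nuclei far beyond their proportion to Sftpc. Etv5 had a ratio of 3.69 in RP1 and 3.92 in RP2 but 1.08 in both RPC1 and RPC2. In RP1 it rested on 16 Etv5 transcripts in alveolar type 2-like nuclei. Both RPC animals were also lower for Napsa (1.32 and 0.728 against 0.319 and 0.516), Lamp3 (0.441 and 0.470 against 0.277 and 0.368) and Slc34a2. The genotypes overlapped for the other genes. All these ratios share Sftpc as their base, and they were not tested or set against the share over all genes.

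**Figure D3:**
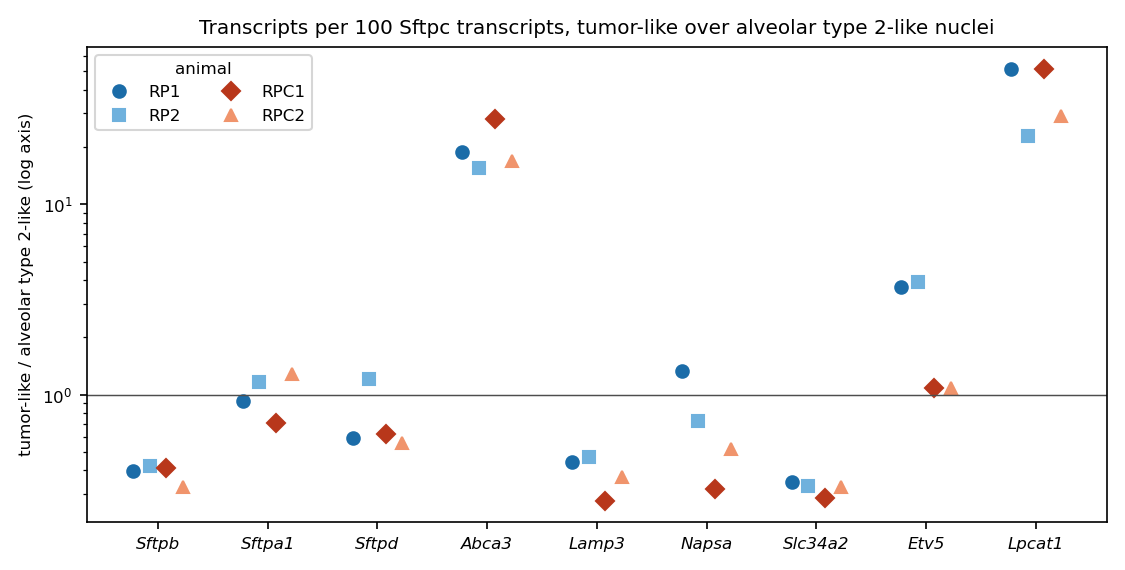
Ratio (y, log axis) of transcripts per 100 Sftpc transcripts in tumor-like nuclei over the same in alveolar type 2-like nuclei, for 9 genes (x), 1 point per animal. The line marks 1, at which both classes hold a gene in the same proportion to Sftpc. Abca3 and Lpcat1 lie between 15.5 and 51.5, and Etv5 lies at 3.69 and 3.92 in RP and at 1.08 in RPC. Napsa, Lamp3 and Slc34a2 also lie lower in both RPC animals.

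The comparison of RPC with RP asked whether loss of Casp8 goes with a change of these genes in the remaining alveolar cells and in the tumor. Summed counts of alveolar type 2-like nuclei were tested with edgeR's quasi-likelihood test over 4919 genes, of which 16 (0.325%) passed an adjusted p of 0.05. None of the 10 genes was among them, nor among the 6 of 16968 genes (0.0354%) that DESeq2 called. Largest was the difference of Lpcat1, at -1.20 on the log2 scale (SE 0.37, edgeR adjusted p = 0.243), with mean levels of 281 ± 147 CPM in RP and 140.0 ± 26.7 CPM in RPC (SD, n = 2 each). Slc34a2 had -0.96 (SE 0.32, adjusted p = 0.296), Abca3 -0.67 (SE 0.30, adjusted p = 0.491), Etv5 -0.69 (SE 0.34, adjusted p = 0.560) and Sftpc -0.69 (SE 0.38, adjusted p = 0.611).

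The other members lay nearer to 0 or above it. For Sftpd the log2 fold change was 0.54 (SE 0.30, edgeR adjusted p = 0.613), for Napsa 0.33 (SE 0.36), Sftpb 0.09 (SE 0.31), Lamp3 -0.0048 (SE 0.33) and Sftpa1 -0.34 (SE 0.38). The animals of both genotypes did not overlap for 5 of the 10 genes, Sftpd and Napsa being higher and Abca3, Slc34a2 and Lpcat1 lower in RPC. Over all genes tested 41.2% did not overlap, so 5 of 10 was near this background. Single calls depended on 1 animal, in fits where the genotype left with a single animal is assumed to vary like the other. Without RP1, with its 22 nuclei, Slc34a2 (-1.28, adjusted p = 0.0215) and Lpcat1 (-1.53, adjusted p = 0.0102) passed, and without RPC2 Sftpc passed (-1.41, adjusted p = 0.0188).

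**Figure D4:**
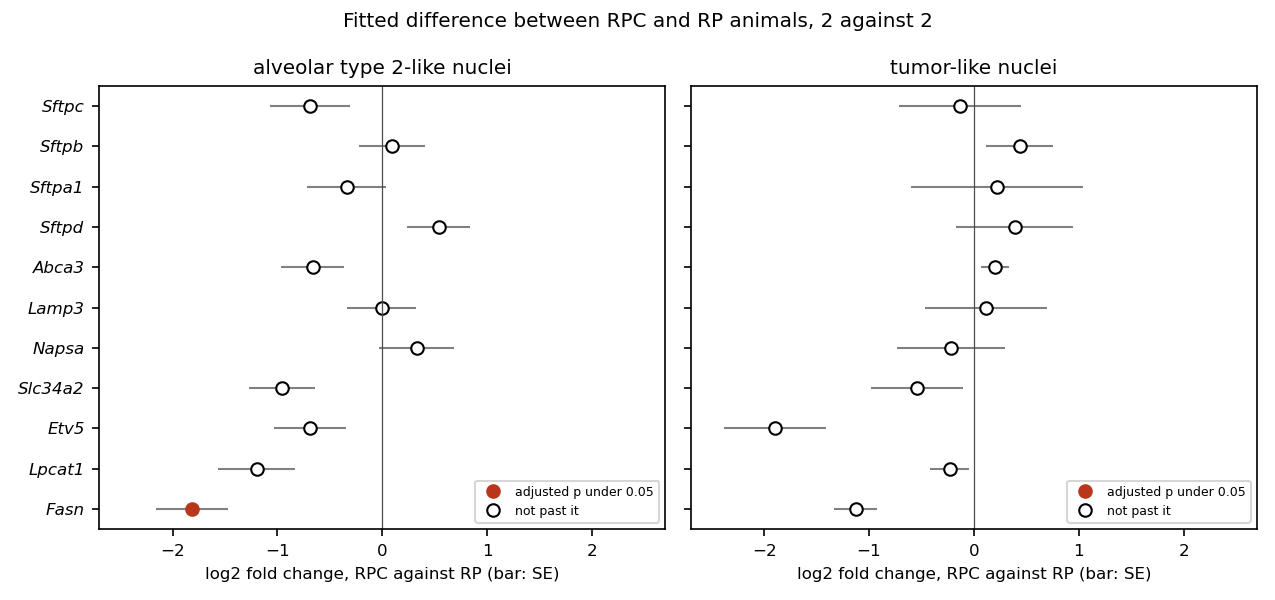
Log2 fold change of RPC against RP (x, bars are the SE) for the 10 genes and Fasn (y) in alveolar type 2-like and tumor-like nuclei. In alveolar type 2-like nuclei Fasn at -1.81 passed edgeR's adjusted p of 0.05 and none of the 10 genes did, and in tumor-like nuclei Etv5 lay lowest at -1.90 and passed with DESeq2 but not with edgeR, from which all values drawn come.

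The share of alveolar type 2-like nuclei among kept nuclei was 0.263%, 1.09%, 0.451% and 0.679%, or 0.678% ± 0.587 in RP and 0.565% ± 0.161 in RPC (SD, n = 2 each, two-sided exact permutation p = 1). RP1 and RP2 thus differed more from each other than the genotypes did. In summed counts of all kept nuclei, fewer alveolar cells and less RNA per cell cannot be told apart. In these sums edgeR called 0 of 21405 genes (0.0%), while 3321 had an unadjusted p below 0.05. DESeq2 called 689 of 37700 genes (1.83%), none of them among the 10. Abca3 was higher and Etv5 lower in both RPC animals there, 2 of 10 against 50.6% of all genes.

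In tumor-like nuclei edgeR called 0 of 20117 genes (0.0%), while 3043 had an unadjusted p below 0.05. DESeq2 called 645 of 36604 genes (1.76%), a larger set of genes than that of edgeR. Of the 10 genes Etv5 had the largest difference. It stood at 4.25 and 9.22 CPM in RP1 and RP2 and at 1.49 and 2.25 CPM in RPC1 and RPC2, on 117, 254, 79 and 103 transcripts. The log2 fold change was -1.90 (SE 0.48, edgeR adjusted p = 0.277), and -1.86 with DESeq2, where it passed (adjusted p = 0.0131). The 4 first-round wells of RP ranged from 3.73 to 10.1 CPM and the 5 wells of RPC from 1.37 to 2.68 CPM. These wells split the nuclei of the same animals and are not further replicates. Across the 5 tumor-like clusters held mostly by an RP animal Etv5 ranged from 2.90 to 11.4 CPM, and across the 6 held mostly by an RPC animal from 0.838 to 4.85 CPM, so the clusters overlapped.

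Etv5 was also looked at in other classes. In macrophage- or monocyte-like nuclei it stood at 23.6 and 18.8 CPM in RP1 and RP2 against 4.65 and 6.72 CPM in RPC1 and RPC2 (log2 fold change -1.99, SE 0.43, edgeR adjusted p = 0.269). In smooth muscle- or pericyte-like nuclei it stood at 16.7 and 18.6 against 11.0 and 8.02 CPM (-1.02, SE 0.41, edgeR adjusted p = 0.384), and in endothelial-like nuclei at 17.5 and 10.7 against 5.36 and 3.44 CPM, on 4 to 9 transcripts per animal, too few for the fit. Both RPC animals were below both RP animals in these classes and in tumor-like nuclei, but not in alveolar type 2-like nuclei, where RPC2 lay above RP1. That order rested on 54 Etv5 transcripts in RPC2 and only 16 in RP1. The fold change of Etv5 in alveolar type 2-like nuclei was below 0 and kept its sign in all 14 alternatives. The genotypes overlapped in club-like nuclei too, at 35.0, 18.6, 1.24 and 19.0 CPM, in alveolar type 1-like nuclei, at 0, 23.1, 0 and 4.34 CPM, and in B cell-like nuclei, at 3.03, 0, 0 and 7.16 CPM. The last 3 classes had at most 15 transcripts of Etv5 per animal. Among all genes tested both RPC animals were lower for 22.2% in tumor-, 16.7% in macrophage-, 18.3% in endothelial- and 16.4% in smooth muscle-like nuclei. The fits in macrophage-, endothelial- and smooth muscle-like nuclei were chosen after the values of Etv5 were seen. In these 3 classes edgeR called 1 of 11579 (0.00864%), 4 of 9446 (0.0423%) and 4 of 9968 genes (0.0401%), none of them among the 10. Of the 10 genes, 1 of 7 fitted did not overlap in macrophage-like nuclei (46.4% of all genes), 1 of 3 in endothelial-like nuclei (46.0%) and 2 of 5 in smooth muscle-like nuclei (47.9%). The summed neuroendocrine markers were higher in RPC in macrophage-like nuclei as well, at 4485 and 4265 against 5786 and 7080 CPM, but their median was 101 and 85.5 CPM in RP and 84.2 and 92.9 CPM in RPC. The part of tumor transcripts in the values of Etv5 was not tested.

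**Figure D5:**
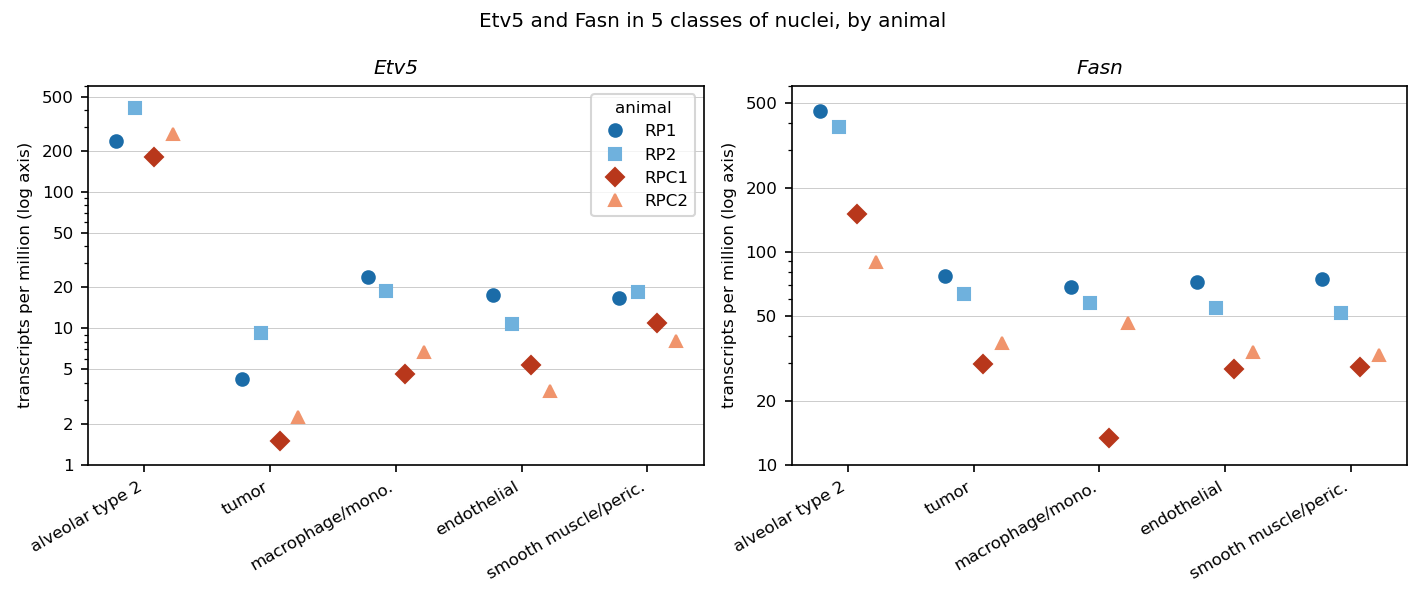
Level (y, CPM on a log axis) of Etv5 and Fasn in 5 classes of nuclei (x), 1 point per animal. Fasn was lower in both RPC animals than in both RP animals in all 5 classes, and Etv5 in 4 of the 5, though not in alveolar type 2-like nuclei. There RP1, which lay below RPC2, held only 16 Etv5 transcripts. The classes were chosen after the values of Etv5 were seen, and its genotypes also overlapped in club-, alveolar type 1- and B cell-like nuclei, which are not drawn.

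The other 9 genes did not pass in tumor-like nuclei with either tool. Abca3 had a log2 fold change of 0.20 (SE 0.13, edgeR adjusted p = 0.494), and Sftpb, Slc34a2 and Lpcat1 had 0.44 (SE 0.32), -0.54 (SE 0.44) and -0.23 (SE 0.19). Sftpc, Sftpa1, Sftpd, Lamp3 and Napsa lay between -0.22 and 0.39 with standard errors of 0.52 to 0.82. The genotypes did not overlap for 3 of the 10, Sftpb and Abca3 being higher and Etv5 lower, against 50.7% of all genes tested. The summed neuroendocrine markers were also higher in RPC, at 10645 and 11157 CPM against 6806 and 6879 CPM, whereas their median was 141, 139, 135 and 141 CPM and overlapped. In club-like nuclei the fit took 6 of the 10 genes and called none, as among all 6522 genes (0.0%), of which 476 had an unadjusted p below 0.05. Only Lpcat1 did not overlap there, 1 of 6 against 42.1% of all genes. In alveolar type 1-like nuclei it took 3 of the 10 and called none, as among all 4684 genes (0.0%), of which 389 had an unadjusted p below 0.05. Abca3 alone did not overlap, 1 of 3 against 40.7%. DESeq2 called none of the 10 genes in either class, though it gave no adjusted p for Napsa in the first and only that of Abca3 in the second.

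Of the further surfactant pathway, 4 lists were described: synthesis of phospholipids and fatty acids, lamellar body biogenesis and secretion, regulators of alveolar type 2 genes, and surfactant clearance by macrophages. With edgeR, 1 of 14 tested genes of the synthesis list fell in RPC in alveolar type 2-like nuclei and none rose, and of the other lists 0 of 9, 0 of 8 and 0 of 3 passed, against 0.325% of all genes. The median log2 fold changes of the 4 lists in alveolar type 2-like nuclei were -0.16, -0.13, -0.20 and 0.98. The last rested on 3 genes, and the median over all genes was 0.01. In tumor-like nuclei 0 of 16, 0 of 15, 0 of 13 and 0 of 8 passed with edgeR, while DESeq2 called Fasn of the synthesis list.

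The gene that fell was Fasn, fatty acid synthase, which makes the palmitate of surfactant lipids. In alveolar type 2-like nuclei it stood at 457 and 384 CPM in RP1 and RP2 and at 149.6 and 89.4 CPM in RPC1 and RPC2 (log2 fold change -1.81, SE 0.34, edgeR adjusted p = 0.0224, lower in 2 of 2 RPC animals). With an animal left out in turn the adjusted p ranged from 0.00187 to 0.0488, but 1 genotype was then a single animal, assumed to vary like the other genotype. The call was lost with DESeq2 (adjusted p = 0.0818) and in the odd and the even sublibraries alone (adjusted p = 0.0715 and 0.614). Fasn was lower in RPC in the other classes too. In tumor-like nuclei it stood at 76.5 and 63.4 against 29.7 and 37.1 CPM (-1.13, SE 0.20, edgeR adjusted p = 0.263, DESeq2 adjusted p = 0.00661), and in endothelial-like nuclei at 72.2 and 54.7 against 28.1 and 33.7 CPM (-1.07, SE 0.31, edgeR adjusted p = 0.317). Whether its change differed between classes was not tested. Among the 16 genes called in alveolar type 2-like nuclei were Pabpc4 and Gm30835, which were called lower in endothelial-like nuclei too, and Calca, a peptide gene of neuroendocrine cells, which was higher in RPC (206 and 245 against 691 and 739.7 CPM). Pabpc4, Gm30835 and Scarna2, the last also called lower, stood among the leading genes of tumor-like clusters held mostly by RP1 or RP2. Cp and Fmo2, which stood among the leading genes of club-like clusters, were called higher in RPC (0 and 7.53 against 118 and 94.3 CPM for Cp), and Lars2, Gm15564 and Cdk8 lower, of which Cdk8 was a leading gene of an unnamed cluster of shallow nuclei. Acoxl, a naming marker of the class, was called lower as well (221 and 339 against 78.4 and 84.4 CPM). These called genes, Fasn aside, were named after their values were seen, and the part of nuclei of other kinds in the calls was not tested.

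For the 3 lists without a call, the 3 most abundant genes are given, with their values in alveolar type 2-like nuclei. Of the lamellar body list, Lrrk2, a kinase that affects lamellar body size, had a log2 fold change of -0.44 (SE 0.30), Ctsh, a protease of SP-B processing, -0.26 (SE 0.30) and Myo5c, a vesicle motor, -0.13 (SE 0.30). Of the regulators, Fgfr2, a growth factor receptor, had -0.04 (SE 0.28), Nfib, a maturation factor, 0.25 (SE 0.29) and Stat3, a cytokine-responsive factor, -0.47 (SE 0.30). Of the clearance list, Abca1, a cholesterol exporter, stood at 133 and 154 CPM against 349 and 253 CPM (0.98, SE 0.34, edgeR adjusted p = 0.341). Pparg, a lipid-sensing nuclear receptor, had 1.76 (SE 0.76, edgeR adjusted p = 0.467) and Plin2, a lipid droplet protein, -0.69 (SE 0.62). These values are not of macrophages. In macrophage- or monocyte-like nuclei edgeR called 0 of 8 tested genes of this list, with a median log2 fold change of 0.38. The genotypes did not overlap for 6 of these 8, against 46.4% of all genes. Whether this exceeds that share was not tested. Nkx2-1, the lung factor whose core letters occur in the promoters of Sftpb and Sftpa1 and which was looked up after the lists were read, stood at 162, 113, 103 and 174 CPM in alveolar type 2-like nuclei and at 69.3, 65.4, 47.0 and 61.1 CPM in tumor-like nuclei. All 4 animals had it higher in alveolar type 2-like nuclei, but far less so than Sftpc.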

How the data were processed

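Nuclei of 4 animals were barcoded by split-pool indexing (Parse Evercode). The authors aligned reads to GRCm39, separated the animals and deposited matrices of counts of transcripts per nucleus and gene, not normalized. Following the limits of the study, nuclei were kept here with at least 300 counts, at most 12000 genes and at most 10% of counts from mitochondria. The 2000 most variable genes without the 10 genes, 20 principal components and a Leiden clustering (leidenalg 0.10.2, resolution 0.4, non-tumor nuclei again at 1) gave classes named by markers. Names are rebuilt and may differ from those of the study. No doublet caller was run. Nuclei above 4 times the median of their animal were left out as an alternative. Counts per class and animal were summed and RPC was tested against RP with edgeR 4.0.16 (TMM, filterByExpr, two-sided quasi-likelihood test, Benjamini-Hochberg adjusted p under 0.05). A class was fitted where every animal had at least 10 nuclei. The alveolar type 2-like fit in even sublibraries was an exception, with only 8 nuclei in the smallest animal. The SE is the absolute log2 fold change over the square root of F. On simulated counts the fit was checked before use. The study used DESeq2 on summed counts, and DESeq2 (here version 1.42.0) was an alternative, as were other filters, cluster settings and sublibraries, the replicate number as a block and leaving out each animal. Two-sided exact permutation tests compared shares. The animals were the replicates. The genes named were all 10, the pathway genes past the threshold or the 3 most abundant per list, and the 5 nearest to Sftpc. The genes and lists were chosen with earlier results of these data known.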

Additional observations from a re-analysis of the deposited data

Results flagged for a closer look

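Abca3 was lower in both RPC animals than in both RP animals in alveolar type 2-like nuclei (log2 fold change -0.67) and higher in both in tumor-like (0.20), alveolar type 1-like (0.30) and smooth muscle- or pericyte-like nuclei (0.0763). Lpcat1 was lower in both RPC animals in alveolar type 2-like nuclei (-1.20) and higher in both in endothelial-like nuclei (0.32). The differences between classes were not tested.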

How the results depend on the processing

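Of 280 log2 fold changes of the 10 genes under alternatives, 252 kept their direction and their side of the threshold, 24 changed sign (13 of them with an animal left out) and 4 came to pass it: Etv5 in tumor-like nuclei with DESeq2, and in alveolar type 2-like nuclei Slc34a2 and Lpcat1 without RP1 and Sftpc without RPC2. The cause of these changes was not tested. Genes called in alveolar type 2-like nuclei, 16 with edgeR, numbered 6 with DESeq2, 44 without a filter on low counts, 2 and 0 in the odd and the even sublibraries, 9 with the 10 genes used in clustering and names, and 19 to 79 with an animal left out. In tumor-like nuclei the count of 0 became 645 with DESeq2, 18 without the filter and 0 to 4 with an animal left out. In all kept nuclei it became 689 with DESeq2, 1551 without the filter and 0 with any animal left out. The labels tie replicate numbers to no shared litter or day, and the correlation of same-numbered animals (2 pairs) ranged over classes from -0.133 in club-like to 0.136 in alveolar type 1-like nuclei, with -0.0525 in tumor-like and 0.0261 in alveolar type 2-like nuclei. With the replicate number as a block 52 genes were called in alveolar type 2-like nuclei and 0 in tumor-like nuclei, and Lamp3 in the former was 0.13. Sign changes elsewhere were of Sftpc (0.11) and Slc34a2 (0.084) in tumor-like nuclei without very deep nuclei. In alveolar type 2-like nuclei they were of Sftpb in odd sublibraries (-0.055), with at least 500 counts (-0.011) and with the 10 genes in clustering (-0.022), and of Lamp3 with size factors of DESeq2 (0.0023), DESeq2 (0.11), no filter (0.066), odd sublibraries (0.11) and without very deep nuclei (0.045). With an animal left out, which leaves 1 genotype with a single animal assumed to vary like the other, tumor-like values ranged from -0.84 to 0.61 for Sftpc, -0.62 to 1.69 for Sftpa1, -0.20 to 1.41 for Sftpd, -0.43 to 1.01 for Lamp3 and -0.89 to 0.27 for Napsa, and alveolar type 2-like values from -0.13 to 0.38 for Sftpb, -0.80 to 0.88 for Sftpa1 and -0.37 to 0.83 for Lamp3. The difference in the share of alveolar type 2-like nuclei ranged from -0.528 to 0.302 percentage points, and that in the share of tumor-like nuclei with Sftpc from -0.224 to 0.449. RP1 had 67853 transcripts in its alveolar type 2-like nuclei, so genes near 100 CPM rested there on few transcripts.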
